A study of Arabidopsis thaliana with 9 samples.

Results

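The genes CCA1, LHY and RVE1 to RVE8 encode the MYB-like transcription factors of the Arabidopsis circadian clock, and their signals were described in whole plants after NaCl stress and after ABA treatment. The members were taken by locus, with each array probe matched to a locus through its RefSeq accession. The loci were AT2G46830 (CCA1), AT1G01060 (LHY), AT5G17300 (RVE1), AT5G37260 (RVE2), AT1G01520 (RVE3), AT5G02840 (RVE4), AT4G01280 (RVE5), AT5G52660 (RVE6), AT1G18330 (RVE7) and AT3G09600 (RVE8). All 10 were represented, by 18 probes together, and all 10 were among the 22816 genes tested of 34256 on the array. The probe that stands for each gene was chosen by its mean log2 signal over the 9 arrays, and the family was selected on signals already known from the same comparisons of control, NaCl and ABA. The folds, adjusted p-values and calls of the members are therefore given as a description of where each gene lay in the fit of all genes, and not as independent evidence.

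The series holds 9 one-colour Agilent oligo microarrays of 4-week-old Columbia (Col-0) seedlings without any transgene, 3 for each of 3 groups. The control plants stayed under normal conditions and their labels name H2O, the NaCl plants received 150 mM NaCl, and the ABA plants received 10 μM ABA. All were harvested with root and shoot after 6 h. Per the methods, each treatment gave 1 pool of plants that was split into 3 portions, whereas the design text speaks of different plants for each experiment, so that p-values measure the spread between these samples, which may be technical. Because the harvest pools all organs, fewer cells of a type and less RNA per cell cannot be told apart in any value below. The unstressed plants were collected alongside the treated ones per the methods, which give rhythms as the reason. The methods name a natural photoperiod and the labels a fixed cycle of light and dark, and the clock time of harvest is not given in the sources used here.

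CCA1 and LHY are closely related repressors whose transcripts peak around dawn in Arabidopsis. Their proteins bind the evening element in promoters of genes expressed later in the day, among them TOC1 and GI. TOC1 represses CCA1 and LHY in return. RVE8, with RVE4 and RVE6, binds the same element but activates evening genes, together with the LNK coactivators. RVE3 and RVE5 belong to the same subfamily as RVE8. RVE1, RVE2 and RVE7 form another branch, in which RVE1 is known to link the clock to auxin synthesis and to chlorophyll synthesis in the dark.

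Between 68.9% and 72.0% of the probes were well above background on each array, no spot was saturated, and the median intensity ran from 126 to 254. Each slide held arrays of a single group. The 3 control arrays shared a slide, the ABA arrays lay on 2 further slides, and the NaCl arrays lay on slide 4, which was scanned 235 days before the others, so that NaCl and the time of scanning cannot be told apart. Of 6 ABA response markers, 6 were called higher with NaCl and 5 with ABA, beside 9.93% and 0.842% of all genes tested. LTI65 among them was above background on 0 of 3 control arrays. It entered the test through the treated arrays, so that its calls are no result about the list. All 11 shoot markers were above background on every array. Of 16 root markers, 9 were above background on all control arrays, 7 on all ABA arrays and 13 on all NaCl arrays, and 3, 5 and 0 of them were above it on no array of the group. Signals were also summed over 11 root markers, and the log2 of that sum was taken. It ran from 10.94 to 13.91 in the control, from 10.60 to 13.32 with ABA and from 13.13 to 15.18 with NaCl. Its brightest gene, PYK10, alone ran from 7.01 to 13.67, from 7.32 to 13.00 and from 12.79 to 14.82. The highest sums thus rested largely on PYK10. The log2 of the sum over 7 shoot markers ran from 20.32 to 20.43, from 20.31 to 20.39 and from 20.02 to 20.08. The part of these marker levels in the values of the clock genes was not tested.

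On the brightest probe of each gene, LHY fell under NaCl stress while RVE2, RVE3 and RVE6 rose, and after ABA treatment RVE3 rose. A gene was called when limma gave a Benjamini-Hochberg adjusted p under 0.05 over all genes tested and the fold change was at least 2. NaCl called 4 of the 10 members, 3 higher and 1 lower, where 23.2% of all genes tested were called, 9.93% higher and 13.3% lower. ABA called 1 of 10, higher, where the share of all genes was 1.57%, with 0.842% higher and 0.732% lower. ABA against NaCl called 2 of 10, CCA1 and LHY, both higher with ABA, beside 20.3% of all genes, 10.4% higher and 9.82% lower. The NaCl and ABA comparisons share the same 3 control arrays.

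The arrays of a treatment all lay on one side of the control arrays for 6 of 10 members with NaCl, beside 52.9% of all genes. Of these members 5 were higher and 1 lower, beside 22.7% and 30.2% of all genes. They did so for 5 of 10 with ABA, all of them higher, beside 29.6% of all genes in either direction and 9.27% higher, with 20.3% lower. ABA and NaCl arrays did not overlap for 8 of 10 members, beside 52.1% of all genes, with 4 members higher with ABA and 4 lower, beside 25.5% and 26.6%. The median log2 change of the members was 0.59 with NaCl and 0.55 with ABA, and that of all genes tested was -0.11 in both. The median of the members thus lay above that of all genes with either treatment, and LHY with NaCl was the member furthest below it.

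**Figure D1:**
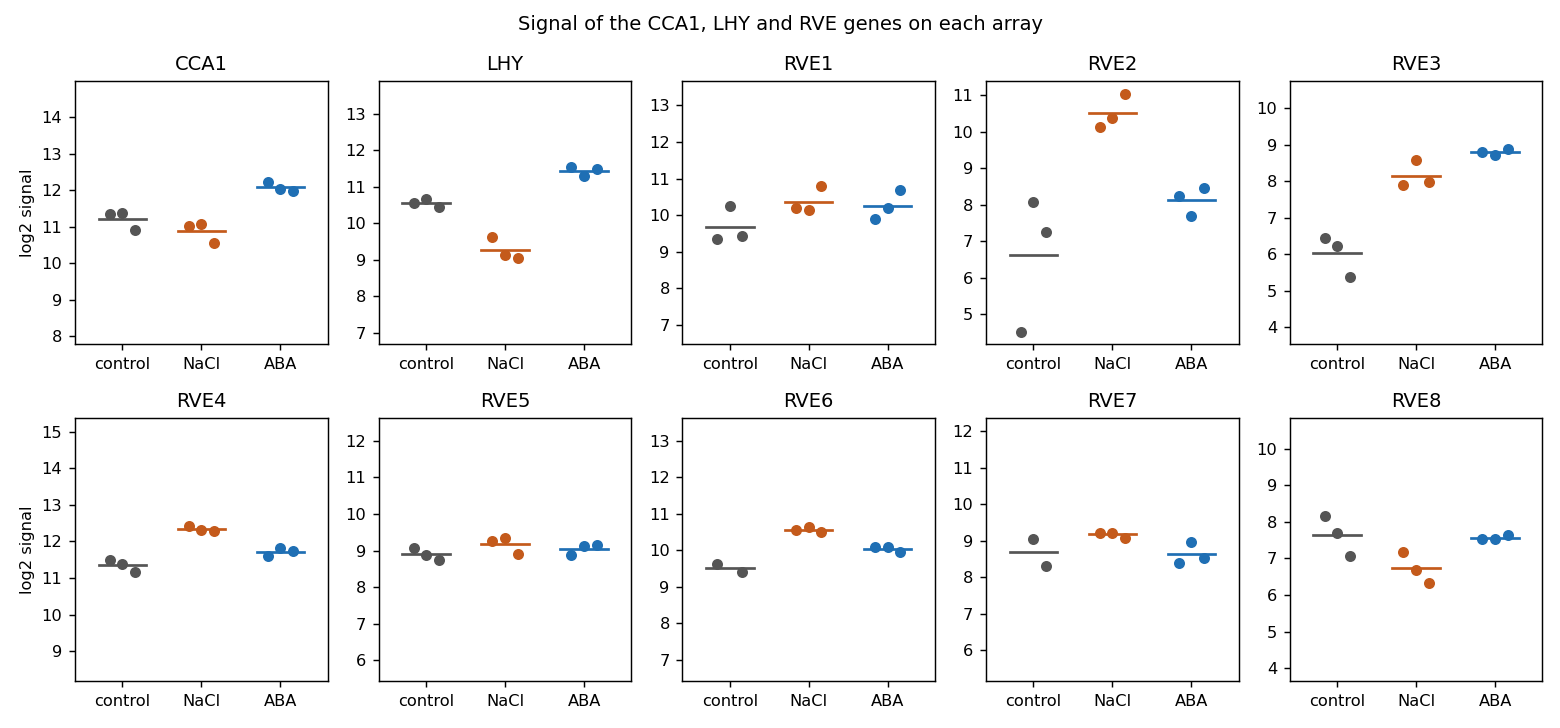
Quantile-normalized log2 signal (y axis) of each CCA1, LHY or RVE gene on each of the 3 control, 3 NaCl and 3 ABA arrays (x axis), with 1 point per array and a bar at the group mean. The brightest probe of each gene is shown, and RVE6 and RVE7 have 2 control points each. LHY is lowest on the 3 NaCl arrays and highest on the 3 ABA arrays, and RVE4 and RVE6 run from control over ABA to NaCl without overlap. This order did not hold for the second RVE6 probe, which is not shown.

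CCA1 had log2 signals of 11.34, 11.37 and 10.91 on control arrays 1 to 3, of 11.00, 11.06 and 10.54 with NaCl, and of 12.22, 12.04 and 11.97 with ABA. The ABA arrays lay above all others, while control 3 lay below NaCl 1 and NaCl 2, so that control and NaCl overlapped. The log2 change was 0.87 with ABA (95% interval 0.42 to 1.33), with a limma adjusted p of 0.069, and -0.34 with NaCl (95% interval -0.79 to 0.12). Neither was called. ABA exceeded NaCl by 1.21 on the log2 scale, or 2.31-fold, and this difference was called (limma adjusted p = 0.0033). The call was lost with the methods' t-test after adjustment. On the brightest CCA1 probe, the level with ABA was thus separate from the other groups, and those of control and NaCl did not differ beyond their spread.

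LHY, the partner of CCA1, gave 10.56, 10.65 and 10.45 on the control arrays, 9.64, 9.12 and 9.04 with NaCl, and 11.55, 11.30 and 11.48 with ABA. No groups overlapped, and the order ran from NaCl over control to ABA. LHY fell by 1.29 on the log2 scale with NaCl (95% interval -1.71 to -0.87, limma adjusted p = 0.0016), a 2.44-fold decrease. The change with ABA was 0.89 (95% interval 0.47 to 1.31), 1.85-fold, with a limma adjusted p of 0.057, and was not called. LHY was 4.51-fold higher with ABA than with NaCl (log2 difference 2.17, limma adjusted p = 0.00033). Among the 10 members this was the largest increase from NaCl to ABA.

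CCA1 and LHY thus stood close together with ABA and apart with NaCl. The log2 signal of LHY minus that of CCA1, taken on each array, moved by -0.95 from control to NaCl and by 0.015 from control to ABA. Its SD over the 3 arrays was 0.17 in the control, 0.30 with NaCl and 0.13 with ABA. The differences on the NaCl arrays lay outside the range of the control arrays and those on the ABA arrays overlapped it. This comparison was made after the values were seen and carries no test.

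RVE8, an activator of evening genes, gave 8.17, 7.69 and 7.07 on the control arrays, 7.16, 6.69 and 6.33 with NaCl, and 7.53, 7.53 and 7.64 with ABA. NaCl 1 lay just above control 3 and the other NaCl arrays below every control, while the ABA arrays sat within the control range. The change of -0.92 with NaCl (95% interval -1.62 to -0.22) had a limma adjusted p of 0.043 but, at 1.89-fold, stayed under the fold limit. It was called without control 3, at -1.20, and without NaCl 1, at -1.14. With ABA the change was -0.08 (95% interval -0.78 to 0.62), and its sign turned with scaling to the 75th percentile, at 0.024, and when marked spots were kept, at 0.0107. RVE8 with ABA exceeded RVE8 with NaCl by 0.84, which was not called with all arrays and was called without NaCl 1, at 1.06.

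RVE4, also called LCL1 and a partner of RVE8 in the activation of evening genes, gave 11.50, 11.40 and 11.16 in the control, 12.42, 12.32 and 12.30 with NaCl, and 11.60, 11.83 and 11.74 with ABA. The groups did not overlap and ran from control over ABA to NaCl. The change with NaCl was 1.00 (95% interval 0.67 to 1.32), 1.99-fold with a limma adjusted p of 0.0016, just under the fold limit, so that RVE4 was not called. Leaving out control 1, control 2, NaCl 2 or NaCl 3 moved it past the limit, at 1.01 to 1.07. With ABA the change was 0.37 (95% interval 0.05 to 0.69) and was not called.

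RVE6, the third of these activators, gave 9.62 and 9.41 on control arrays 1 and 3, 10.56, 10.65 and 10.50 with NaCl, and 10.08, 10.09 and 9.95 with ABA. Its spot on control 2 was marked by the scanner software and left out, so the control rests on 2 arrays. As in RVE4, the order ran from control over ABA to NaCl without overlap. RVE6 rose 2.08-fold with NaCl (log2 change 1.06, 95% interval 0.71 to 1.40, limma adjusted p = 0.0022), just past the fold limit, and the call was lost without control 3, at 0.95. The change with ABA was 0.52 (95% interval 0.18 to 0.87) and was not called.

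The values of RVE8 therefore moved apart from those of RVE4 with NaCl. The log2 signal of RVE8 minus that of RVE4 shifted by -1.91 from control to NaCl and by -0.45 from control to ABA, with an SD over the 3 arrays of 0.38 in the control, 0.36 with NaCl and 0.13 with ABA. The NaCl arrays lay below the control range and the ABA arrays overlapped it. This comparison too was chosen after the values were seen.

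**Figure D2:**
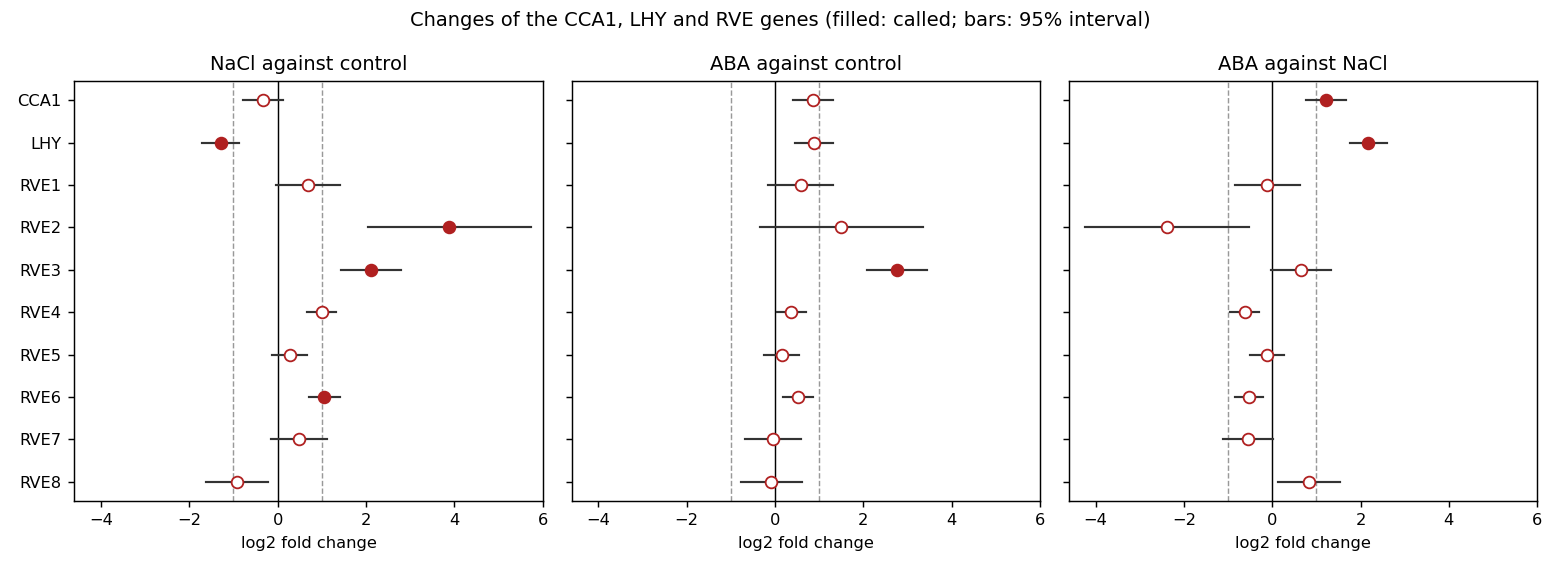
Log2 fold change (x axis) of each gene (y axis) in the panels for NaCl against control, for ABA against control and for ABA against NaCl, with 95% intervals from the limma fit. Filled points were called and the dashed lines mark a 2-fold change: RVE4 with NaCl lies at 1.99-fold and RVE6 at 2.08-fold, on either side of the line.

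RVE3, listed as ASG4 in the reference annotation, had the largest change of the members with ABA. Its log2 signal was 6.46, 6.24 and 5.39 in the control, 7.89, 8.57 and 7.97 with NaCl, and 8.79, 8.72 and 8.89 with ABA. All treated arrays lay more than 1 log2 unit above the highest control array, and the ABA arrays lay above the NaCl arrays. RVE3 rose 6.82-fold with ABA (log2 change 2.77, 95% interval 2.08 to 3.45, limma adjusted p = 0.0063) and 4.33-fold with NaCl (log2 change 2.11, 95% interval 1.43 to 2.80, limma adjusted p = 0.0016). The difference of 0.65 between ABA and NaCl (95% interval -0.03 to 1.34) was not called. RVE3 was called higher in both treatments, and its control signals were low, from 5.39 to 6.46, though above background on all 3 arrays. Under normexp background correction the changes were smaller, 1.81 with ABA and 1.29 with NaCl, and still called. The methods' t-test after adjustment called neither.

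RVE5, its relative, gave 9.07, 8.88 and 8.73 in the control, 9.26, 9.34 and 8.91 with NaCl, and 8.87, 9.12 and 9.15 with ABA. All 3 groups overlapped. The log2 change was 0.27 with NaCl (95% interval -0.12 to 0.66) and 0.15 with ABA (95% interval -0.24 to 0.54), so that changes beyond these limits were not seen in either treatment. In RVE5 no neighbouring levels differed beyond their spread.

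Of the other branch, RVE1 gave 9.35, 10.26 and 9.44 in the control, 10.19, 10.13 and 10.79 with NaCl, and 9.91, 10.20 and 10.67 with ABA. Control 2 stood higher than the other control arrays and within the range of both treatments. The change was 0.69 with NaCl (95% interval -0.04 to 1.42) and 0.58 with ABA (95% interval -0.15 to 1.31), and neither was called. Genes tied to RVE1 in Arabidopsis are on the clock output list, YUC8 of auxin synthesis and PORA of chlorophyll synthesis. YUC8 fell by 1.81 on the log2 scale with NaCl, from 7.41 to 8.18 in the control to 5.40 to 6.42, a call that was lost without control 1, NaCl 1 or NaCl 2, and its change of -2.04 with ABA was not called. PORA ran from 6.48 to 11.65 over the NaCl arrays alone and was not called.

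RVE2, also known as CIR1 and able to disturb rhythms when overexpressed, gave 4.53, 8.07 and 7.26 on control arrays 1 to 3, 10.13, 10.36 and 11.04 with NaCl, and 8.24, 7.69 and 8.46 with ABA. The NaCl arrays lay above all others, and control 1 lay far below the remaining controls although above background. RVE2 rose 14.8-fold with NaCl (log2 change 3.89, 95% interval 2.04 to 5.74, limma adjusted p = 0.0072). Without control 1 the change was 2.84 and still called, whereas the call was lost with the methods' t-test, both after adjustment and before it. The change of 1.51 with ABA (95% interval -0.34 to 3.36) was not called and was 0.46 without control 1.

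The difference of ABA from NaCl in RVE2 was -2.38 on the log2 scale with a limma adjusted p of 0.0502, just outside the threshold. It was called under normexp background correction, with the compared groups alone and with the methods' t-test, adjusted or not. It was also called without control 1 or without control 2, whose values enter through the shared estimate of the spread. Further calls came with the mean of the probes and with the slide as a random block. RVE2 has 1 probe, so the mean of the probes left its own values unchanged. Each slide held a single group, so the slide block cannot separate slide from treatment. Control 1 also had the lowest summed root marker signal of the control arrays, 10.94, and control 2 the highest, 13.91, the order in which RVE2 stood on them. Among the NaCl arrays the order differed, since RVE2 was highest on NaCl 3, which had the lowest summed root marker signal of the group. ABA 2 was the lowest of the ABA arrays in both. The part of root RNA in the RVE2 values was not tested.

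**Figure D3:**
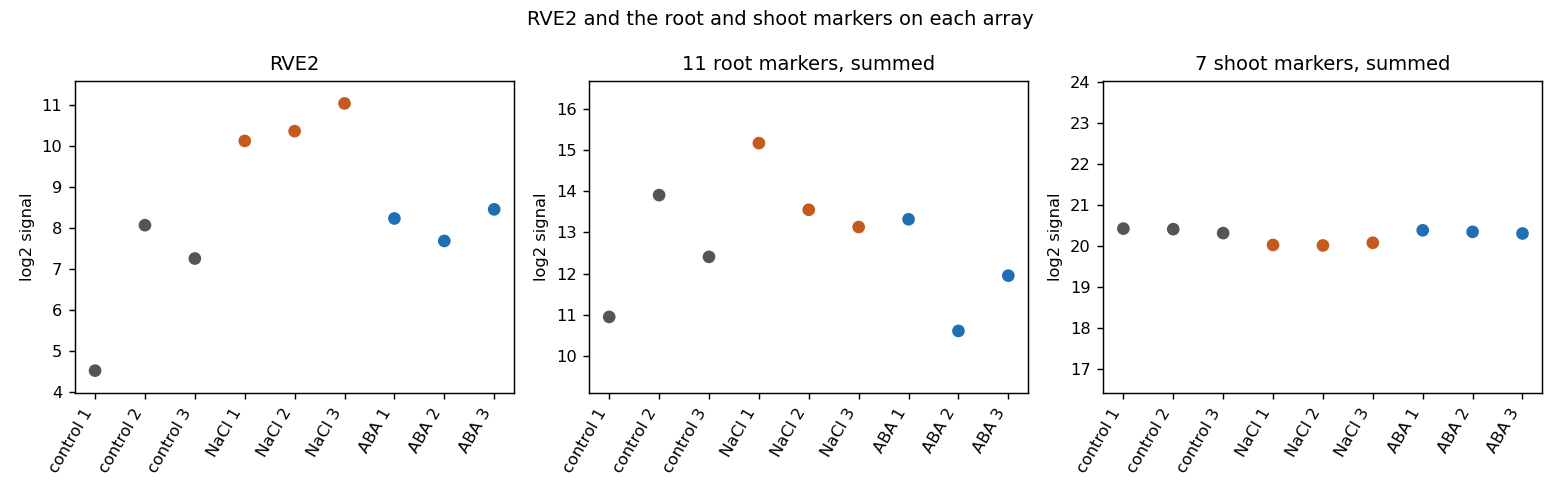
Log2 signal (y axis) of RVE2, of 11 root markers summed and of 7 shoot markers summed on each of the 9 arrays (x axis), coloured by group, on y axes of equal span. Control 1 is lowest of the control arrays in RVE2 and in the root markers, whereas the shoot markers stay between 20.02 and 20.43 on all arrays.

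RVE7, listed as EPR1 and known as a rhythmic gene under phytochrome control, gave 9.05 and 8.31 on control arrays 2 and 3, 9.22, 9.21 and 9.08 with NaCl, and 8.38, 8.97 and 8.53 with ABA. Its spot on control 1 was marked and left out. The NaCl arrays lay just above both controls, and the ABA arrays lay between them. The change was 0.49 with NaCl (95% interval -0.14 to 1.13) and -0.05 with ABA (95% interval -0.69 to 0.58), and neither was called. The sign of the ABA change turned when the marked spot was kept, at 0.44.

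The spread between replicates differed widely within the family. The pooled SD of RVE6 was 0.096 on the log2 scale and that of RVE4 0.13, smaller than in most genes, since 3.24% and 9.12% of all genes tested had a smaller SD. RVE2 stood at the other end with 1.13, above 95.5% of all genes. CCA1 and LHY lay at 0.23 and 0.21, below the median of 0.30 over all genes. The changes of RVE4 and RVE6 near the fold limit thus came with narrow intervals, and those of RVE2 with wide ones.

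The members with more than 1 probe were CCA1, RVE1 and RVE3 to RVE7, and all 18 probes had passed the filter on dim probes. The used probes of all 10 members were above background on all 9 arrays, so that no member was tested through a single bright group. Second probes of RVE4 gave 1.08 with NaCl and 0.38 with ABA, and those of RVE5 gave 0.25 and 0.02, close to the brightest probes. The second RVE1 probe gave larger changes, 1.13 with NaCl and 1.10 with ABA, with a standard error of 0.53. The second RVE3 probe gave 2.22 and 3.58 but was not above background on 2 of the 3 control arrays.

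The probes disagreed in CCA1 and RVE6. The 3 CCA1 probes gave -0.34, 0.01 and -0.67 with NaCl, with standard errors of 0.20, 0.35 and 0.28, and 0.87, 0.77 and 0.58 with ABA. All 3 were thus higher with ABA, and none of the values with NaCl reached 2-fold. For ABA against NaCl the same CCA1 probes gave 1.21, 0.76 and 1.24. On the probe with 0.76, NaCl 3 at 6.65 lay above ABA 3 at 6.58, so that these groups overlapped there. The second RVE6 probe gave 0.26 with NaCl (standard error 0.20) against 1.06 for the brightest probe (standard error 0.15), so that the NaCl call of RVE6 held for the brightest probe alone. Nor did the order of the groups hold for the second probe, which gave 0.08 for ABA against NaCl with overlapping arrays. RVE7 had 0.34 with NaCl and 0.13 with ABA on its second probe, against 0.49 and -0.05 on the brightest, so that the sign with ABA differed between them.

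**Figure D4:**
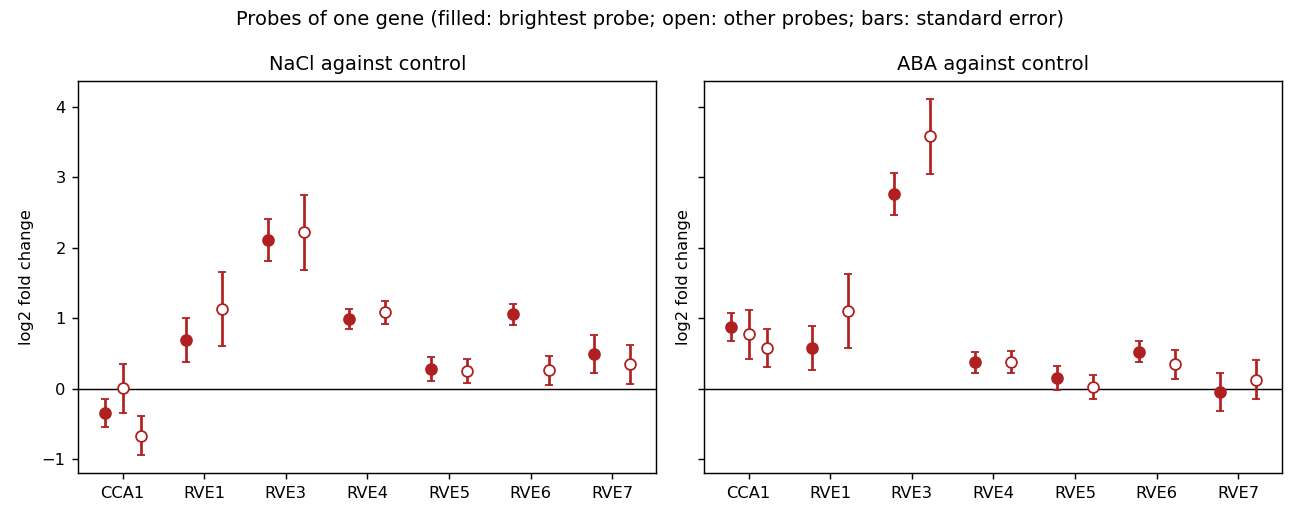
Log2 fold change with its standard error (y axis) for every probe of the members with more than 1 probe (x axis), for NaCl and for ABA against control. Filled points are the brightest probe of the gene and open points the others: the RVE6 probes stand at 1.06 and 0.26 with NaCl, and all 3 CCA1 probes lie above 0 with ABA.

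Genes whose products act with or on the members were described from lists of textbook clock biology. The lists were chosen with earlier results of these data known, so that their counts are a description and not independent evidence. The LNK coactivators, through which RVE8 and its partners activate transcription, had 0 of 4 called with NaCl or with ABA, beside 23.2% and 1.57% of all genes. In limma 3 of 4 had an unadjusted p under 0.05 with NaCl and 2 of 4 with ABA. The share of all genes at that unadjusted limit is not given, so that such counts are no result about a list, here or below. LNK3 (AT3G12320) had log2 changes of 0.92 with NaCl and 0.76 with ABA, and LNK1 (AT5G64170) of 0.58 and 0.95. LNK2 (AT3G54500) gave -0.48 with NaCl. Of 8 regulators of CCA1 transcription, none was called in either treatment, beside the same shares of all genes. Among them were the TCP factors TCP20 and CHE (AT5G08330, listed as TCP11), HY5, FHY3 and FAR1. Of the 8, 4 had an unadjusted p under 0.05 in limma with NaCl and 1 with ABA. The log2 changes of the 8 lay between -0.29 and 0.83 with NaCl and between -0.34 and 0.24 with ABA. HY5, a light-signalling factor, gave 0.83 and TCP20 gave 0.67 with NaCl, both under the fold limit.

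The pseudo-response regulators are expressed in sequence through the day and include repressors of CCA1 and LHY. Of the 5 pseudo-response regulators, 3 were called higher with NaCl, beside 9.93% of all genes. TOC1 rose by 1.52 on the log2 scale, from 7.83 to 8.26 in the control to 9.42 to 9.74 with NaCl. PRR5 rose by 1.96, from 9.24 to 9.87 to 11.34 to 11.62, and PRR3 by 3.31, from 4.91 to 5.64 to 8.37 to 8.94. In none of these did control and NaCl arrays overlap. PRR7, which peaks earlier in the day than TOC1, had a change of -0.95 at 1.93-fold and was not called, with NaCl arrays at 10.95 to 11.45 below control arrays at 12.15 to 12.19. PRR9, the earliest of the group, gave 0.78 and was not called.

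After ABA treatment 0 of 5 pseudo-response regulators were called in limma, with 1 at an unadjusted p under 0.05. That gene was PRR9, with a log2 change of 1.43 (limma adjusted p = 0.062), from 6.55 to 7.40 in the control to 8.06 to 8.81. The median over the 5 genes was 1.52 with NaCl and -0.20 with ABA.

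The evening complex, GI and the light-regulated F-box genes had 5 of 8 called higher with NaCl, beside 9.93% of all genes, and 3 of 8 without NaCl 2. For all 8 the NaCl arrays lay above the control arrays, beside 22.7% of all genes. ELF4, a subunit of the evening complex, rose 17.2-fold (log2 change 4.10), from 5.84 to 6.04 in the control to 9.68 to 10.48. BOA, a relative of the evening complex subunit LUX, rose by 2.54, and LUX itself, listed as PCL1, by 1.09. GI, which stabilises the F-box protein ZTL, rose by 1.03 and the F-box gene FKF1 by 1.13. ELF3, ZTL and LKP2 had changes of 0.65, 0.70 and 0.53 and were not called. The count was 2 in the deposited series table, on whose scale the median of all genes was -0.95 with NaCl, and 1 with the methods' t-test after adjustment.

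With ABA 0 of these 8 genes were called in limma, with 2 at an unadjusted p under 0.05, and their changes lay between -0.53 and 0.39. The median was 1.06 with NaCl and -0.01 with ABA. In the same ABA arrays CCA1 and LHY stood at 0.87 and 0.89.

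Of 13 clock output genes, NaCl called 4 higher and 1 lower, beside 9.93% and 13.3% of all genes. GRP7 and GRP8 (listed as CCR1), rhythmic RNA-binding proteins that peak in the evening, rose by 2.35 and 1.28. AT4G33980 rose by 5.15, from 4.53 to 4.89 in the control to 8.85 to 10.51. COR27, a cold- and clock-regulated gene, gave 3.25 to 4.11 in the control and 9.53 to 9.79 with NaCl. It was above background on 1 of the 3 control arrays and entered the test through the NaCl arrays, so that its call is no result about the list and the size of its change is not given. The gene called lower was YUC8. With ABA the calls were CDF1 and CDF3, repressors of flowering genes that are transcribed in the morning, which rose by 1.52 and 1.16, beside 0.842% of all genes called higher, and none was called lower. CDF1 rests on 2 control arrays, since its spot on the other one was marked. Both calls were lost without control 3, without ABA 1, ABA 2 or ABA 3, with the compared groups alone and with the adjusted methods' t-test. Only 1 gene of the list was called higher with the replicate block, without control 1 and with the unadjusted methods' t-test. With ABA 3 of the 13 genes were called lower with the slide as a random block, 2 with the unadjusted methods' t-test and 1 with scaling to the 75th percentile. GRP7 and GRP8 had changes of -1.72 and -1.14 with ABA that were not called. With NaCl, CDF3 gave 0.85, CDF1 gave 0.46 and CAB2, also on the list, gave -0.68, all under the fold limit. Between ABA and NaCl, CDF3 differed by 0.31, which was not called, and CDF1 by 1.06, which was called.

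**Figure D5:**
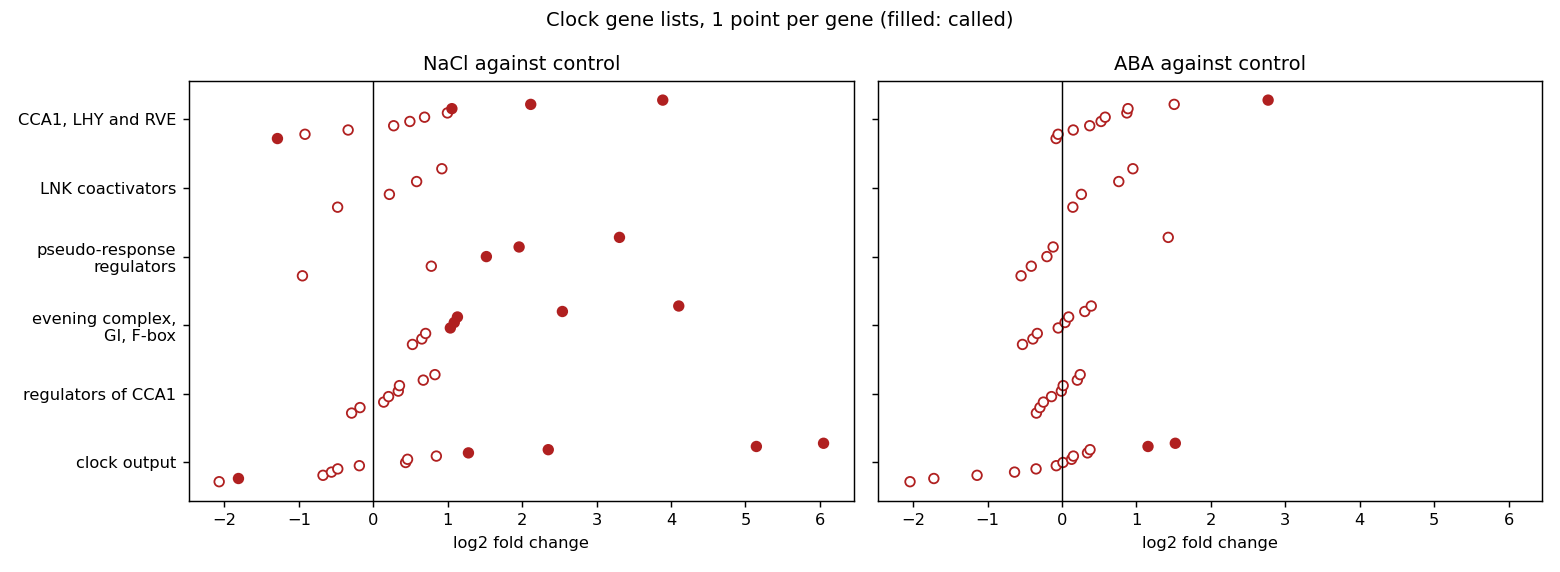
Log2 fold change (x axis) of each gene of the family and of 5 lists of clock genes (y axis), 1 point per gene, for NaCl and for ABA against control, with filled points for called genes. All 8 evening complex, GI and F-box genes lie between 0.53 and 4.10 with NaCl and between -0.53 and 0.39 with ABA.

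The genes with a matched locus and the most similar pattern over the 9 arrays were found by Pearson correlation among 20855 genes measured on every array, as a description, since the points share their groups and slides. For CCA1 they were LACS8, an acyl-CoA synthetase, with r of 0.98, then AT4G34330 and the phospholipase D gene PLDALPHA2, both with 0.96. LHY correlated with CCA1 at 0.90 and ranked 50 among all genes, and 47 genes had r above 0.9 with CCA1. For LHY the first 3 were the kinase gene SNRK2.1, AT5G45490 and AT1G75170, with r between 0.97 and 0.98, and 262 genes had r above 0.9. For RVE8 they were AT2G04066, AT4G18820 and NFS1, a mitochondrial cysteine desulfurase gene, with r of 0.97, and 205 genes had r above 0.9. RVE8 and RVE2 ran most nearly opposite among the members set against RVE8, with r of -0.84.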

How the data were processed

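RNA of whole Col-0 seedlings was measured on 9 one-colour Agilent arrays, 3 each for control, NaCl and ABA. Intensity values came, per the file headers, from Feature Extraction 10.7.3.1, with local background and spatial trends taken off and no normalization between arrays. The deposited files also hold the median intensities of each spot and its surroundings, and 0 or 1 as the mark of spots well above background, saturated, non-uniform or outlying. The deposited series table holds log2 values that the authors had quantile-normalized, with control and ABA columns on one distribution and NaCl columns on another (medians 7.65 and 6.79), so it served only as an alternative. Its ABA columns match the array files in another order (columns 1, 2 and 3 match arrays 2, 3 and 1).

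Control probes and spots marked non-uniform or outlying were left out. Of 43603 probes, 34392 matched 25426 loci through the unversioned accession, and 3747 tested genes had no locus. Annotation was taken from control 1. That of NaCl 3 differed from it for 1985 spots, 1 of them a spot of a member probe. The log2 of the processed intensities was quantile-normalized across the 9 arrays. Probes had to be well above background on every array of at least 1 group, and the brightest stood for its gene. No depth exists for arrays, and their number limits the precision. All 9 arrays entered a single limma fit (2.04 prior degrees of freedom). Versions were limma 3.58.1 and R 4.3.3, with data.table (1.17.8). Calls needed an adjusted p under 0.05 (Benjamini-Hochberg over 22816 genes) and a change of 2-fold or more. The script was tested on simulated data. Figures used Python 3.11.15, pandas 2.3.3 and matplotlib 3.10.9.

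All members are named, as may be any gene of the lists, and for CCA1, LHY and RVE8 the 3 genes of most similar pattern among those with a matched locus. The members and lists were chosen with earlier results of these data known. As alternatives the values were scaled to the 75th percentile, or computed with normexp with an offset of 50 on the median signal (the files used hold no mean signal, which had been planned), the mean of a gene's probes, no filter on dim probes, marked spots kept, the replicate number or the slide as a block, the compared groups alone, the methods' t-test, the series table, and each array left out. Probe sequences were not used here, so cross-hybridization between related genes was not assessed.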

Additional observations from a re-analysis of the deposited data

How the results depend on the processing

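Adding the replicate block called the same numbers of members, 4 with NaCl, 1 with ABA and 2 for ABA against NaCl, and moved the count over all genes with ABA from 359 to 206. Deviations of same-numbered arrays from their group means had correlations between -0.29 and 0.23 over the 3 comparisons. With 3 arrays a group this cannot exclude a pairing, and the main fit used none. After Benjamini-Hochberg adjustment, the methods' t-test called 0 members with NaCl and 0 with ABA, against 3 and 1 without adjustment, and over all genes 594 and 0 against 4288 and 852. ABA against NaCl called 4 members in the series table, where NaCl called 2 higher and 3 lower in place of 3 and 1. Leaving out an array gave 4 to 5 members with NaCl, 1 to 1 with ABA and 2 to 3 for ABA against NaCl, and 84 to 373 genes in all with ABA. Over all genes, the slide as a random block called 6578, 1354 and 5719 genes in the 3 comparisons, normexp 3352, 266 and 2844, the deposited series values 11309 and 10362 with NaCl and for ABA against NaCl, and the compared groups alone 217 with ABA. Each slide held a single group, so the slide block cannot separate slide from treatment, here or in the results above. The estimated correlation within slides was negative, at -0.34.

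Signs turned in the series table, whose NaCl scale lies lower, for RVE1 (-0.22) and RVE5 (-0.60) with NaCl, and for RVE1 (0.84), RVE4 (0.35), RVE5 (0.80), RVE6 (0.42) and RVE7 (0.39) for ABA against NaCl. Taken relative to the median of all genes in that table (-0.95 and 0.91), they were 0.73 and 0.35 with NaCl, and -0.07, -0.55, -0.10, -0.48 and -0.52, so that none turned. Small changes with ABA also turned: RVE7 with the mean of its probes (0.081), marked spots kept (0.44) and the series table (0.44), and RVE8 with 75th percentile scaling (0.024), marked spots kept (0.0107) and the series table (0.0108). Leaving out an array gave -0.31 to 0.10 for RVE1 in ABA against NaCl, and -0.42 to 0.32 for RVE7 and -0.37 to 0.18 for RVE8 with ABA. The NaCl call of RVE6 was also lost under normexp (0.83), the mean of its probes (0.71) and the series table (0.26), and RVE4 was called under normexp (1.05), the mean of its probes (1.04) and marked spots kept (1.01). The causes were not tested. Signal near background limits RVE2 on control 1 (4.53, where the lowest signal above background was 3.78).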
